A study of Mus musculus with 5 samples.

Results

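Small nucleolar RNAs (snoRNAs) are short non-coding RNAs that work in the nucleolus as guides for the chemical modification of ribosomal RNA. H/ACA snoRNAs, whose genes carry Snora symbols, pair with rRNA and place pseudouridines through the synthase Dkc1. C/D snoRNAs, whose genes carry Snord symbols, direct ribose methylation by the methyltransferase fibrillarin, and a few members of both families act in cleavage of the rRNA precursor instead. Most vertebrate snoRNAs are cut out of the introns of host genes, many of which encode ribosomal proteins, nucleolar proteins or non-coding host transcripts, and a few are transcribed from promoters of their own.

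The snoRNA genes were taken as all genes with a numbered Snora or Snord symbol on a probe set that the platform annotation gives exactly 1 symbol, each represented by its probe set with the highest mean. This gave 73 of 22180 genes, namely 26 H/ACA and 47 C/D genes on 75 probe sets. Signals were read in mouse embryonic fibroblasts (MEFs) of genotype STING-/-, into which the R284S variant of this adaptor of DNA sensing had been put back, so all groups share the deletion and R284S. The labels call the treatments AMPK inhibitors as a whole and give 9 hours for them. The agents were Compound C, an inhibitor of the energy-sensing kinase AMPK, doxorubicin, an anthracycline that poisons topoisomerase II, GSK 690693, an AKT kinase inhibitor that also acts on AMPK, tofacitinib, a JAK inhibitor, and vehicle. Their targets are stated here as background. There was 1 array per group and 5 in all, with no replicate, so nothing below has an error or a test, and counts of snoRNA genes are set beside the share over all 22180 genes. The sources used here give neither the doses nor the promoter that drives R284S. Total RNA came from a silica-membrane kit, a method known to keep short RNAs poorly, and the array does not tell mature snoRNA, spliced-out intron and unspliced host transcript apart.

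The label primary MEF was checked against marker genes. All 10 fibroblast markers averaged between 7.45 and 12.57 on the log2 signal scale, whereas 5 epithelial markers lay between 3.71 and 6.13, 4 endothelial ones between 4.57 and 5.69 and 4 blood cell markers between 3.51 and 6.88. The median over all genes was between 5.43 and 5.44 on the compound arrays, against 5.50 with vehicle. The vehicle array stood apart from the other arrays for snoRNA genes, and as it is a single array, this cannot be told apart from an effect of every compound. Each comparison with vehicle is therefore followed by comparisons among the compound arrays.

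The host genes named below differ at their starts. The windows of 30 bases shown here hold 15 bases before and 15 bases from the annotated start of 10 hosts, namely the 2 non-coding hosts that hold the most of the snoRNA genes and 8 chosen after values were seen, as hosts of snoRNA genes described below. They are RefSeq sequences of the build GRCm38.p6, read on the strand of the gene. Capitals mark a C followed by at least 4 letters that are C or T, the C lying within 5 bases of the start. The 5′ terminal oligopyrimidine tract known from ribosomal protein genes begins at the start itself, which the search did not require.
Snhg12 (chr4:132308663-132308692, plus strand): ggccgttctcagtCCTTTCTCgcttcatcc
2410006H16Rik (chr11:62602862-62602891, plus strand): tcacgcgccgtCTTTCTCTgcggccatcat
Ipo7 (chr7:110018300-110018329, plus strand): ttggcgcttctCTTTCCTTTCgcgccggtt
Srcap (chr7:127511968-127511997, plus strand): cctacccgccCCTTCagcctccagttactg
Kansl2 (chr15:98534255-98534284, minus strand): gagcagccagagggcaagctgcgcggtgcc
Wdr43 (chr17:71616200-71616229, plus strand): accccgcgccggtgcgcctgcgcccgggcg
Gnl3 (chr14:31019117-31019146, minus strand): cgtaaatccaacctgtggccgccaggcgag
Rbmx (chrX:57393022-57393051, minus strand): cttaatttccatccgggttcttcagcctcg
Rps3a1 (chr3:86142654-86142683, minus strand): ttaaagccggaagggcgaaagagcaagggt
Snhg1 (chr19:8723472-8723501, plus strand): gttgttcttgtcggcctcatttttccttgt
Such a run lay across the start of Snhg12 and 2410006H16Rik, non-coding hosts of 4 and 3 snoRNA genes, and of Ipo7, which hosts Snora23. In Srcap, which hosts Snora30, the run ended just before the annotated start. It was not found in these windows of the other 6, which are Kansl2, host of Snora2b and Snora34, Wdr43, host of Snord53 and Snord92, Gnl3, host of Snord69 and Snord19, Rbmx, host of Snord61, Rps3a1, host of Snord73a and Snord73b, and Snhg1, host of Snord22. Searched on the strand of the gene alone, with any annotated start of a gene counting, it occurred at 14 of 40 host genes with a start in the table (35.0%) and at 21.2% of all 27025 genes.

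snoRNA genes spanned most of the signal range of the array. Snora33 was the brightest, with a log2 signal of 12.51 with Compound C, 12.52 under doxorubicin, 12.57 under GSK 690693 and 12.43 under tofacitinib, against 12.22 with vehicle. The brightest C/D genes were Snord99 (mean over the 5 arrays 11.78), Snord47 (11.39), Snord82 (11.37), Snord110 (11.36) and Snord49b (11.14). Snora21 (8.97), Snora23 (8.61), Snora16a (8.45) and Snora44 (8.39) followed Snora33 in the H/ACA class. At the dim end were Snora20 (3.76) and Snora19 (4.07), and among C/D genes Snord90 (2.35) and Snord85 (3.91). The mean of 60 of the 73 genes, 21 H/ACA and 39 C/D, reached 5.45, the mean of the array medians. The median of the gene means was 6.69 for H/ACA and 8.16 for C/D genes. These are levels of different probe sets, whose brightness also depends on the probes, and the annotated lengths differ, with a median of 118.5 bases for H/ACA and 68 for C/D genes.

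Most snoRNA genes read lowest on the vehicle array. Vehicle was the lowest of the 5 arrays for 47 of 73 genes (64.4%), 15 H/ACA and 32 C/D, against 17% of all genes, and it was the highest for 2, Snora23 and Snord88c, against 16%. Doxorubicin was lowest for 16 genes (20.4% of all genes), tofacitinib for 8 (19.3%), Compound C for 1 (22.7%) and GSK 690693 for 1 (17.7%). At the other end, doxorubicin was highest for 27 snoRNA genes (32.2% of all genes), Compound C for 18 (22.3%), GSK 690693 for 13 (13%) and tofacitinib for 10 (13.7%). When vehicle was set against the median over the 4 compounds, 25 snoRNA genes (34.2%) were at least 1.5-fold lower on the vehicle array, and 1 was higher by that much. Over all genes these shares were 0.83% and 1.37%. In bulk RNA, fewer cells of a kind and less RNA per cell cannot be told apart. The median snoRNA signal was 7.66 with Compound C, 7.70 under doxorubicin, 7.77 under GSK 690693 and 7.64 under tofacitinib, against 7.09 with vehicle.

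**Figure D1:**
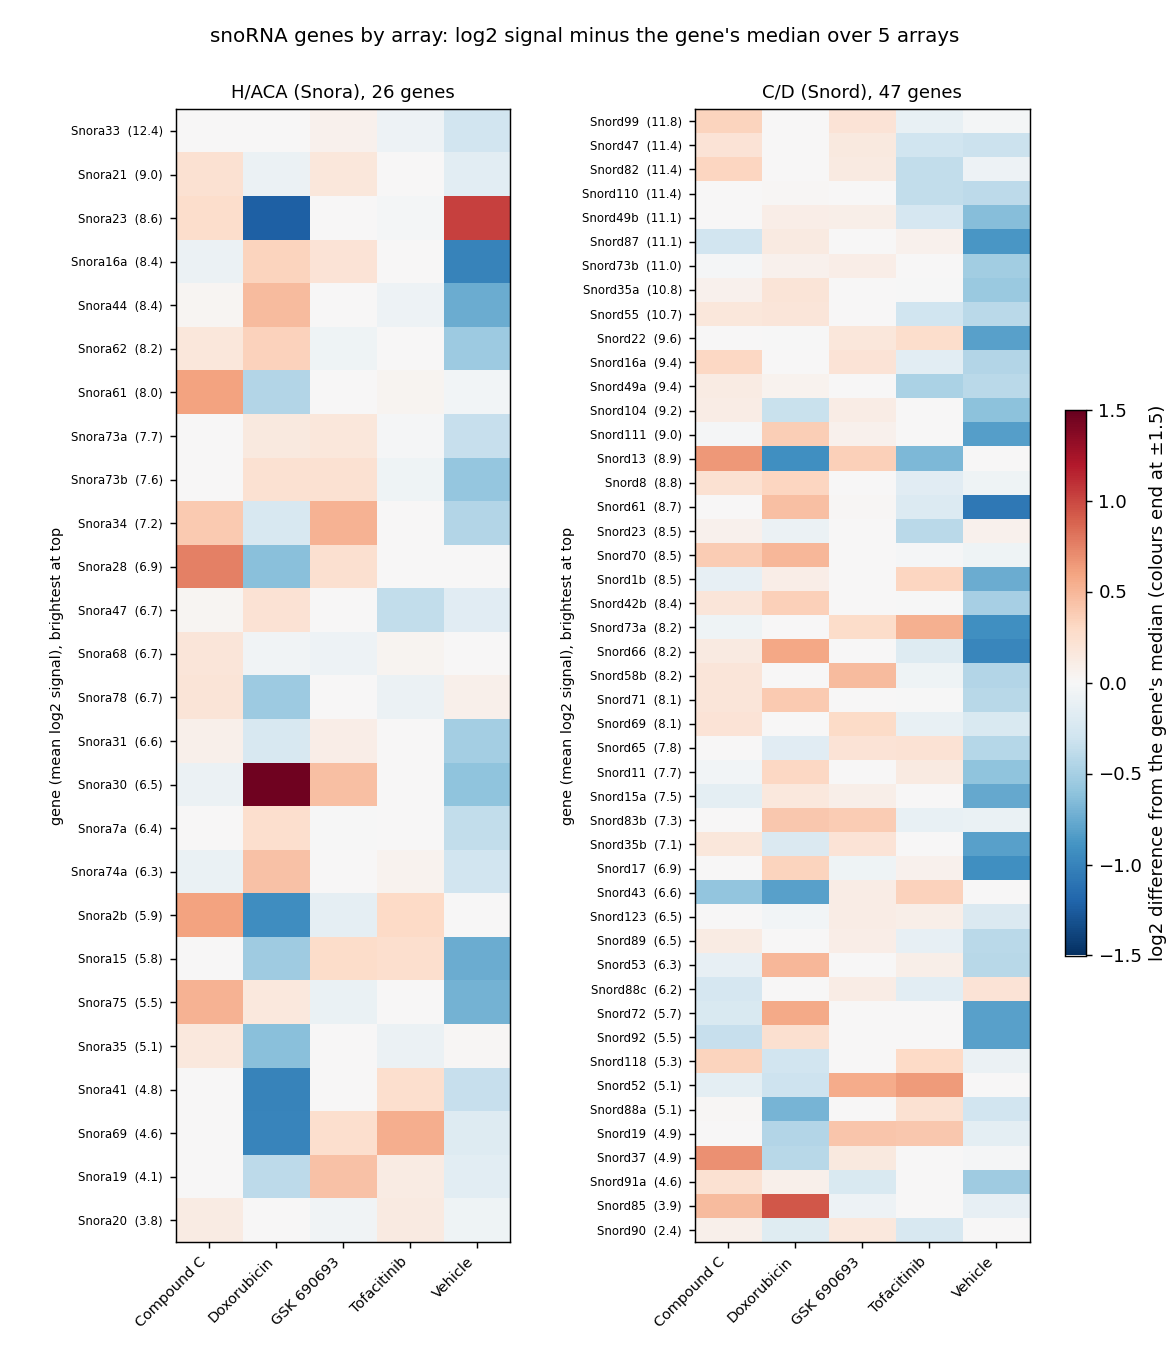
Log2 signal of each of the 73 snoRNA genes on the 5 arrays, as the difference from that gene's own median over the arrays (red above, blue below). Rows run from the brightest gene at the top, with its mean log2 signal in brackets. The vehicle column is blue for most genes of both classes, and Snora23 is the clearest exception.

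**Figure D2:**
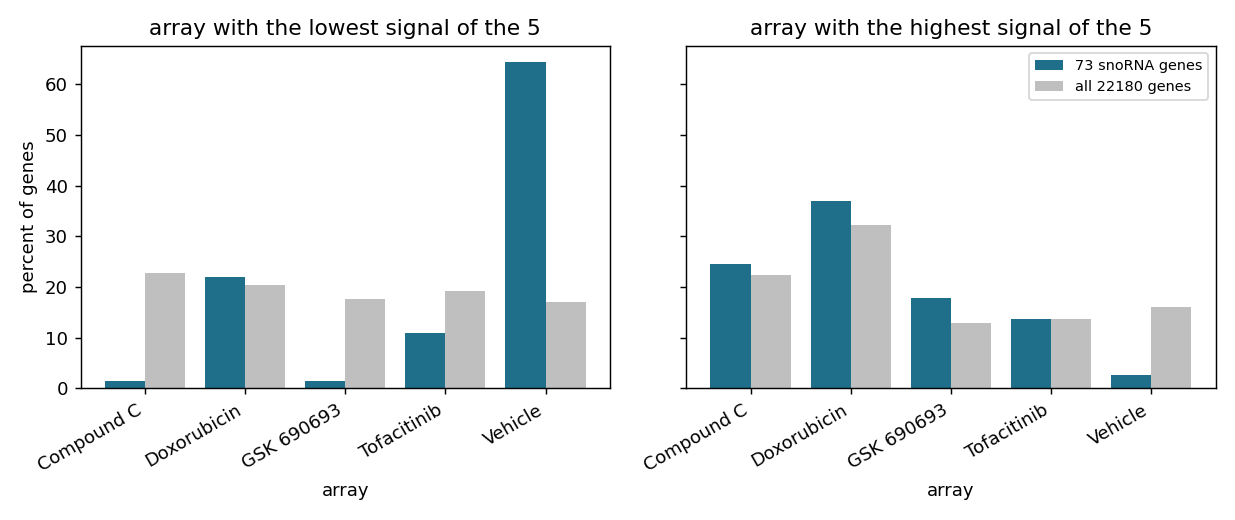
Percent of genes for which each array had the lowest (left) or the highest (right) signal of the 5, for the 73 snoRNA genes and for all 22180 genes. The vehicle array was lowest for 64.4% of snoRNA genes and for 17% of all genes.

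With Compound C, 31 of 73 snoRNA genes (42.5%) read at least 1.5-fold higher than with vehicle and 2 at least 1.5-fold lower, against 4.75% and 6.47% of all genes. The median log2 difference was 0.52 for snoRNA genes and 0 for all genes. By any amount, 68 snoRNA genes (93.2%) lay above vehicle, against 49.3% of all genes. The largest difference was in Snora75, an H/ACA gene of the nucleolin host Ncl, which read 6.03 with Compound C against 4.80 with vehicle, 2.35-fold. Snord66 read 8.39 with Compound C and 7.28 with vehicle (2.16-fold), and Snord61 8.84 and 7.77 (2.10-fold). Snord35b differed by 0.99 and Snord17 of Snx5 by 0.92. The lowest were Snora23 (−0.77), Snord43 (−0.59) and Snord88c (−0.45).

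Of the 4 compounds, doxorubicin gave the widest spread of snoRNA differences from vehicle (SD over the 73 genes 0.71, against 0.48 over all genes). Here 28 genes (38.4%) read at least 1.5-fold higher than with vehicle and 9 (12.3%) at least 1.5-fold lower, against 7.62% and 8.83% of all genes, and the median difference was 0.41. Above vehicle by any amount lay 53 of 73 snoRNA genes (72.6%), against 53.5% of all genes. The largest difference was in Snora30, an H/ACA gene within Srcap, which read 7.71 with doxorubicin and 5.65 with vehicle. This 4.17-fold difference was the largest upward one of all 22180 genes. Snord66 read 8.84 with doxorubicin and 7.28 with vehicle (2.95-fold), and Snord61, within the RNA-binding protein gene Rbmx, 9.29 and 7.77 (2.87-fold). Snord72 differed by 1.39 and Snora16a by 1.33.

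The genes lower with doxorubicin were mostly of the H/ACA class, 7 of 26 H/ACA against 2 of 47 C/D genes. Snora23 read 7.38 with doxorubicin and 9.63 with vehicle, a difference of −2.25. Snora2b read 5.02 with doxorubicin against 5.95 with vehicle, and Snord13 8.14 against 9.06. The others were Snora69 (−0.80), Snora41 (−0.66), Snora35 (−0.65), Snora28 (−0.63), Snora78 (−0.62) and Snord43 (−0.82). Of the 9, Snora69, Snora41 and Snora35 had means below 5.45. With genes under that mean left out, 6 of 60 snoRNA genes (10.0%) were lower, against 14.9% of all genes above it. The share of lower snoRNA genes was thus not above that of all genes under this filter. The 9 genes had a median difference from vehicle of 0.19 with Compound C, 0.11 with GSK 690693 and 0 with tofacitinib.

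With GSK 690693, 28 snoRNA genes (38.4%) read at least 1.5-fold higher than with vehicle and 1 lower, against 1.74% and 2.5% of all genes. The median difference was 0.48, and 66 lay above vehicle by any amount, against 48.5% of all genes. snoRNA genes, 73 of all 22180, made up 17 of the 100 largest upward differences, against 1 with Compound C, 8 with doxorubicin and 14 with tofacitinib. Such counts also depend on how widely all genes spread. The SD of differences from vehicle over all genes was 0.48 (doxorubicin), 0.39 (Compound C), 0.28 (tofacitinib) and 0.28 (GSK 690693). The counts therefore do not rank the compounds by snoRNA difference, whose median was largest for Compound C at 0.52. Snora16a read 8.76 with GSK 690693 and 7.56 with vehicle, and Snord73a 8.52 and 7.32, both 2.30-fold. Snord61 (1.09), Snora30 (1.05) and Snord35b (1.02) followed. Snora23 was the gene on the other side (−1.03), and Snora2b (−0.14) and Snord88c (−0.09) were nearest to it.

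Tofacitinib gave 23 snoRNA genes (31.5%) at least 1.5-fold higher than vehicle and 2 lower, against 1.88% and 1.93% of all genes. The median difference was 0.39, and 59 (80.8%) lay above vehicle by any amount, against 50.4% of all genes. Snord73a, a C/D gene within the ribosomal protein gene Rps3a1, read 8.77 with tofacitinib and 7.32 with vehicle. At 2.73-fold this was the largest upward difference of all 22180 genes on that array. Snord22 differed by 1.08, Snord1b by 1.06 and Snora15 by 0.99, and Snora16a read 8.56 with tofacitinib and 7.56 with vehicle. Snora23 (−1.06), Snord13 (−0.67) and Snord23 (−0.47) were lowest. All 4 sets of differences use the same vehicle array.

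**Figure D3:**
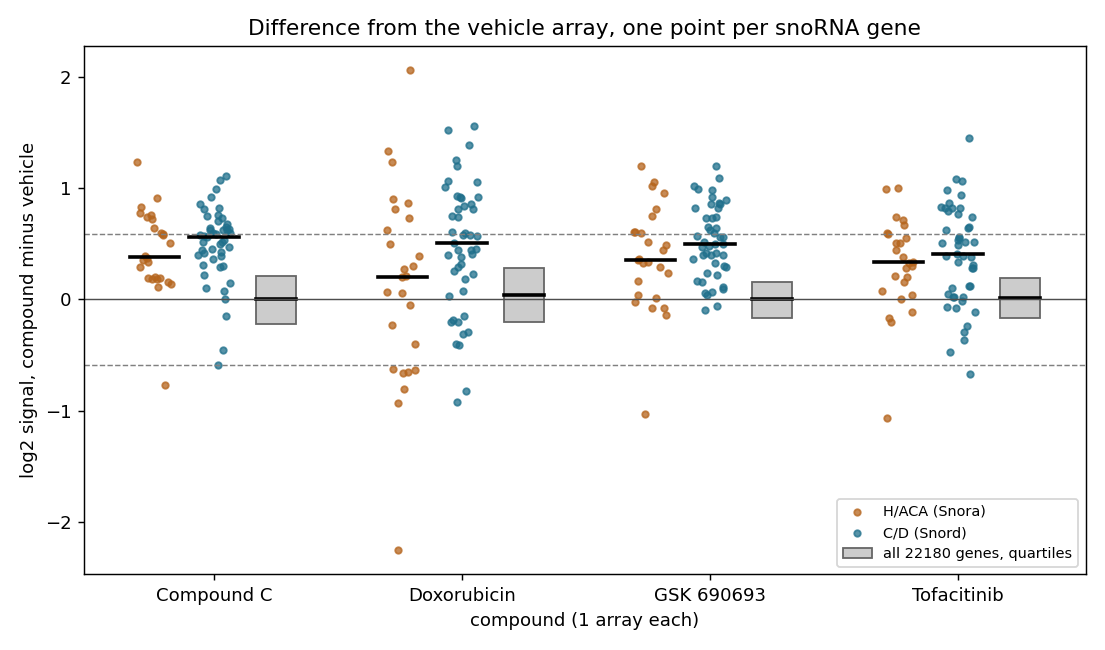
Log2 signal on each compound array minus vehicle, 1 point per H/ACA (brown) or C/D (blue) gene, with black lines at the medians. Grey boxes span the quartiles of all 22180 genes, and dashed lines mark 1.5-fold. Most points lie above the grey boxes, and doxorubicin also has points of both classes below them.

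The H/ACA class lay closer to vehicle than the C/D class by its median with each compound. The medians were 0.38 for H/ACA and 0.56 for C/D genes with Compound C, 0.205 and 0.51 with doxorubicin, 0.355 and 0.50 with GSK 690693, and 0.335 and 0.41 with tofacitinib. The doxorubicin gap was the largest at −0.31. The order turned for Compound C (0.01) when genes with a mean under 5.45 were left out. With those genes left out the gap was −0.28 with doxorubicin, −0.20 with GSK 690693 and −0.07 with tofacitinib. For tofacitinib it turned when the reference was the median over the other 4 arrays (0.0175) or over the other 3 compounds (0.07). Against the same references the gap shrank to −0.0075 and −0.015 with Compound C and to −0.075 and −0.015 with GSK 690693. With doxorubicin it was −0.1975 and −0.24. With doxorubicin the H/ACA quartiles ran from −0.57 to 0.70 and the C/D quartiles from 0.13 to 0.89. Signal level differed between the classes too. In the dimmest 24 genes, 11 of them H/ACA, the median difference with doxorubicin was −0.06, against 0.45 in the brightest 25 genes, and its part in the class gap was not tested.

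snoRNA genes known for special roles did not all read alike. Snord22 (U22), which in frog oocytes is needed to make the small-subunit rRNA, read 9.65 with Compound C, 9.64 under doxorubicin, 9.82 under GSK 690693 and 9.91 under tofacitinib, against 8.83 with vehicle. The closely similar Snora73a and Snora73b (U17), which act in precursor cleavage, differed from vehicle by between 0.33 and 0.81, and cross-hybridisation between these copies cannot be seen here. Snord35a, 1 of the Rpl13a intron snoRNAs tied to lipid-induced stress in hamster and mouse cells, differed by between 0.55 and 0.75.

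Snord13 and Snord118, known to be transcribed from promoters of their own, lay on both sides of vehicle. Snord13 (U13), which in human cells guides acetylation of the small-subunit rRNA, read 9.71 with Compound C, 8.14 under doxorubicin, 9.42 under GSK 690693 and 8.39 under tofacitinib, against 9.06 with vehicle. It thus lay above vehicle with 2 compounds and below it with the other two. Snord118 (U8), needed in frog oocytes for the large-subunit rRNAs, differed from vehicle by 0.42 with Compound C, by −0.20 under doxorubicin, by 0.09 under GSK 690693 and by 0.39 under tofacitinib. No coding or long non-coding gene of the RefSeq table spans Snord13, Snord118 or Snord89. The last differed from vehicle by between 0.28 and 0.52.

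**Figure D4:**
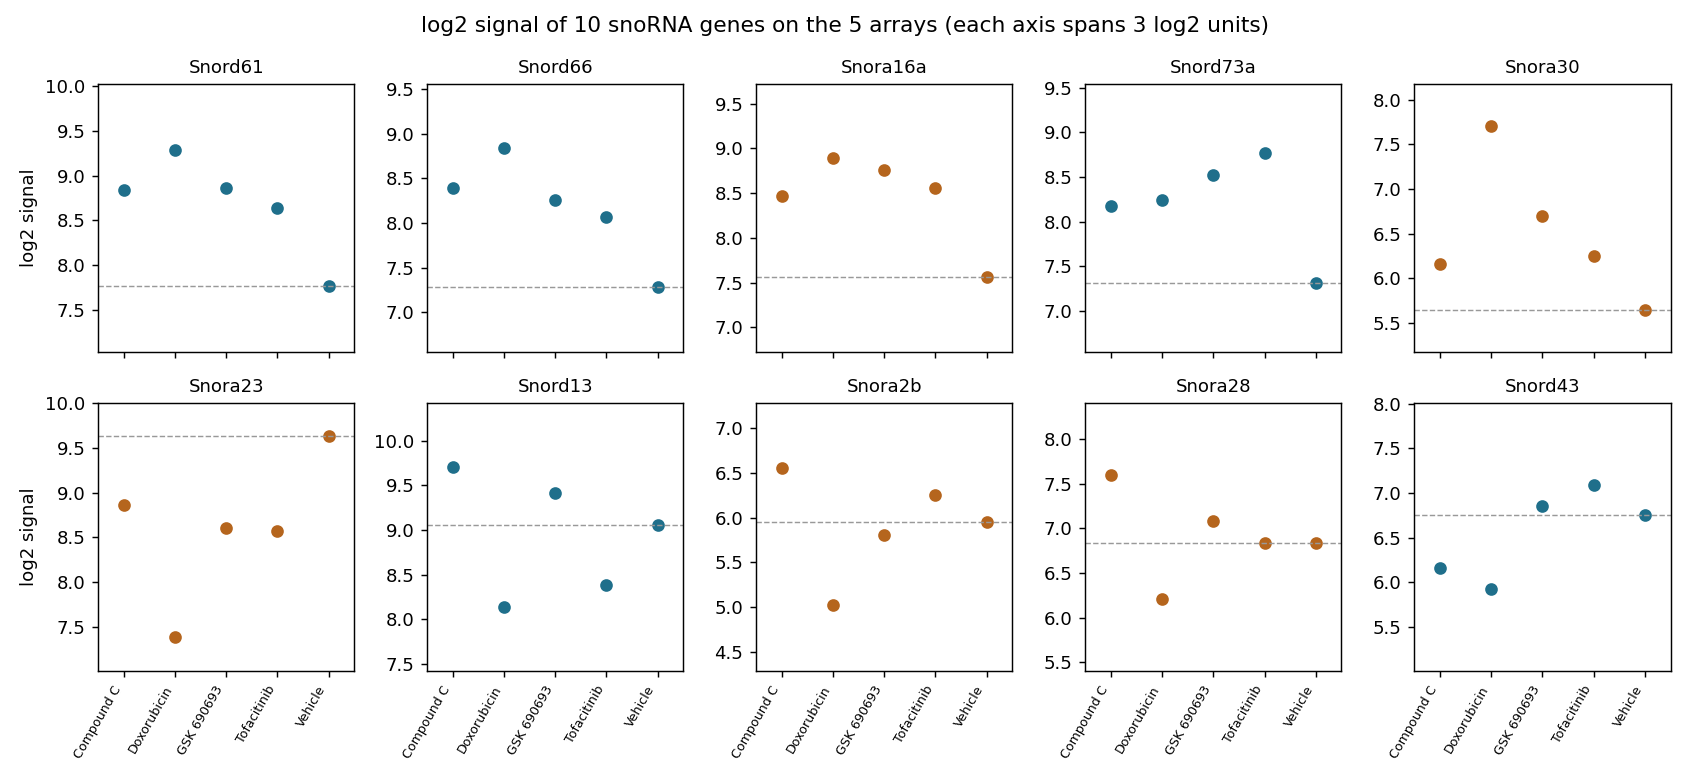
Log2 signal of 10 snoRNA genes on the 5 arrays, 1 point per array, brown for H/ACA and blue for C/D, with a dashed line at the vehicle level. In the upper row all compound points lie above vehicle, and in the lower row Snora23 lies below vehicle with every compound while the others lie on both sides of it.

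The median snoRNA difference between 2 compound arrays lay between −0.11 and 0.05, closer to 0 than any of the medians against vehicle. The highest and lowest of the 4 compound arrays were at least 1.5-fold apart for 30 of 73 genes (14 H/ACA and 16 C/D), against 35.7% of all genes, and the median range was 0.49 for snoRNA genes and 0.47 for all genes. GSK 690693 minus Compound C, both known to act on AMPK, had a median of 0 with 5 genes (6.85%) at least 1.5-fold apart, against 11.3% of all genes. The largest differences in that pair were Snord52 (0.71) and Snord43 (0.70) upward and Snora75 (−0.62) and Snora2b (−0.74) downward. Tofacitinib minus GSK 690693 had 1 gene apart (1.37%, against 2.93% of all genes), Snord13 at −1.03, with Snord58b next at −0.54. Upward, Snora2b (0.44) and Snord1b (0.32) led that pair. Tofacitinib minus Compound C had 8 genes apart, against 14.1% of all genes, led by Snord43 (0.93) and Snord52 (0.79) upward and Snord13 (−1.32) and Snora28 (−0.76) downward.

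The pairs that hold doxorubicin had the most snoRNA genes apart, as they had the most of all genes. Doxorubicin minus Compound C had 17 genes apart (23.3%, against 19.3% of all genes), 4 higher and 13 lower, against 9.81% and 9.52% of all genes. Of the 13, 9 were H/ACA, or 34.6% of that class. Snora30 (1.55) and Snord72 (0.80) were highest and Snora2b (−1.53) and Snord13 (−1.57) lowest. GSK 690693 minus doxorubicin had 16 apart (21.9%, against 17.8%), 14 higher and 2 lower, against 9.9% and 7.85%, with Snord13 (1.28) and Snora69 (1.24) at one end and Snora30 and Snord85 (−1.01 each) at the other. Tofacitinib minus doxorubicin had 16 apart (21.9%, against 14.8%), 11 higher and 5 lower, against 10.2% and 4.66%, with Snora69 (1.54) and Snora41 (1.25) against Snora30 (−1.46) and Snord85 (−0.93). With genes of a mean under 5.45 left out, the order to all genes turned. In doxorubicin minus Compound C 11 of 60 snoRNA genes were then apart (18.3%, against 31.4% of all genes above that mean), in GSK 690693 minus doxorubicin 8 (13.3%, against 28.8%) and in tofacitinib minus doxorubicin 9 (15%, against 23.2%).

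Host transcripts were compared with the snoRNA genes inside them. A single coding or long non-coding gene spanned 64 of the 73, and for 55 of these, in 41 hosts, the host had a probe set of its own. The table used gives no strand, so a spanning gene may run antisense. The hosts had a median difference from vehicle of 0.12 with Compound C, 0.13 under doxorubicin, 0.16 under GSK 690693 and 0.10 under tofacitinib, and the 55 snoRNA genes had 0.47, 0.41, 0.50 and 0.39. Across the 55 genes, Spearman's rho between snoRNA and host difference was 0.16 with Compound C, 0.09 under doxorubicin, −0.03 under GSK 690693 and 0.16 under tofacitinib. The 7 long non-coding hosts among the 41 had a median of 0.53 with Compound C and 0.14 under doxorubicin, and the 34 protein-coding ones 0.08 and 0.11. General lists of host genes, which also hold hosts of snoRNAs not measured here, gave 0.37 and −0.19 for 17 long non-coding hosts and 0.08 and 0.13 for 27 protein-coding hosts. Vehicle was the lowest array for 4 of these 17 and 10 of these 27 hosts, against 17% of all genes. Low signal on the vehicle array was thus not confined to the snoRNA genes. The points of these correlations share arrays, and snoRNA genes of 1 host share its value.

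On the doxorubicin array several hosts lay apart from their snoRNA genes in the difference from vehicle. Wdr43, a ribosome biogenesis factor gene, read 8.34 with doxorubicin and 10.09 with vehicle (−1.75), while its Snord53 and Snord92 lay 0.92 and 1.06 above vehicle. Gnl3, which encodes nucleostemin, stood at −1.82, with Snord69 at 0.23 and Snord19 at −0.29. Nop58, itself a core protein of C/D particles, stood at −0.84 and its Snord11 and Snord70 at 0.91 and 0.57. Snord53, Snord92, Snord11 and Snord70 lay above vehicle with the other compounds too. Kansl2 (−1.21) had Snora2b below vehicle and Snora34 at 0.20. Of 15 snoRNA genes whose host was at least 1.5-fold lower with doxorubicin, 4 lay above vehicle by 1.5-fold or more and 2 below it by as much. Among all 55 snoRNA genes with a measured host, these counts were 20 and 7, against 7.62% and 8.83% of all genes. The 55 include the 15, and whether a lower host goes with a lower snoRNA signal was not tested. The host of Snora23, the nuclear import factor gene Ipo7, differed by −0.32 with doxorubicin and by 0.39 with GSK 690693. These hosts were singled out after their values were seen.

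snoRNA genes of 1 host also differed from each other. Snhg12, whose own signal read 6.34 with doxorubicin and 6.35 with vehicle, holds 4 of the genes, and with doxorubicin Snora16a and Snora44 were 1.33 and 1.23 above vehicle, Snord99 was at 0.03 and Snora61 at −0.40. The 3 genes in 2410006H16Rik lay between 0.43 and 0.64 with Compound C, where the host itself stood at 0.70, between 0.26 and 0.74 with doxorubicin, between 0.40 and 0.73 with GSK 690693 and between −0.07 and 0.65 with tofacitinib. Snord83b and Snord43 of the ribosomal protein gene Rpl3 stood at 0.51 and −0.82 with doxorubicin. With doxorubicin, the 20 snoRNA genes whose host had the C and T run near a start had a median of 0.34. The 33 others with a host start in the table had 0.41.

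**Figure D5:**
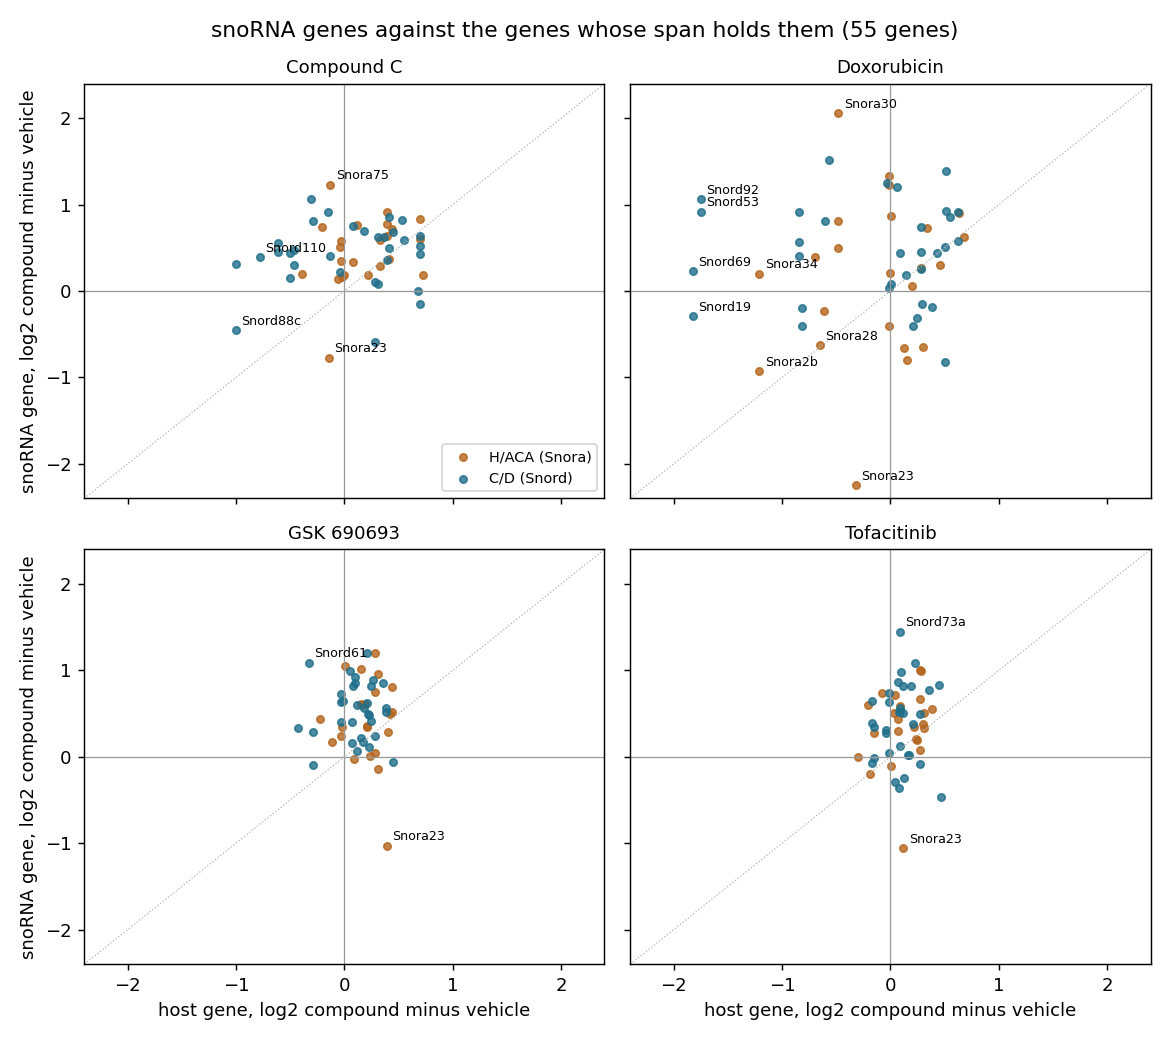
Log2 compound minus vehicle for 55 snoRNA genes (vertical) against the gene whose span holds them (horizontal), 1 panel per compound, with a dotted line of equal difference. Hosts lie near 0 with GSK 690693 and tofacitinib while most snoRNA genes lie above it, and with doxorubicin Snord53 and Snord92 lie above vehicle although their host stands at −1.75.

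Genes of the snoRNA-protein particles did not as a set share the pattern of the snoRNA genes. Of 3 C/D and 4 H/ACA core genes measured, 0 and 0 lay above vehicle with Compound C. With doxorubicin 1 and 3 did, as did 3 and 2 with GSK 690693 and 2 and 4 with tofacitinib. Nop56, Nop58 and Dkc1 also stand in the list of host genes, and fibrillarin itself had no probe set with a single symbol. Of the C/D core proteins, Nop56 differed from vehicle by −0.78 with Compound C and −0.84 with doxorubicin, and Nop58 by −0.61 and −0.84, while both lay within 0.16 of vehicle with GSK 690693 and tofacitinib. Snu13, which binds the K-turn of C/D RNAs, differed by 0 with Compound C and by 0.53 with doxorubicin. With GSK 690693 and tofacitinib Snu13 stood at 0.31 and 0.33. Of the H/ACA core, Dkc1 stood at −0.69 with Compound C and Nhp2 at 0.74 with doxorubicin. Nop10 and Gar1 lay between −0.42 and 0.26 with all 4 compounds.

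Of 13 measured assembly and transport genes, 0 were at least 1.5-fold higher with any compound. With doxorubicin 5 were lower, against 8.83% of all genes and 14.9% of those with a mean of 5.45 or more, where 12 of the 13 lie. They were Nufip1 (−1.29), an adaptor in C/D assembly, the cap hypermethylase gene Tgs1 (−0.97), Naf1 (−0.77), which loads H/ACA proteins, Shq1 (−0.66), a chaperone of Dkc1, and Znhit6 (−0.60). Naf1 also stood at −0.66 with tofacitinib, and Znhit6 at −0.60 with Compound C. The remaining genes of the list, Znhit3, Ruvbl1, Ruvbl2, Pih1d1, Rpap3, Nolc1, Coil and Tcof1, lay between −0.42 and 0.55 with all 4 compounds. Among 11 release and turnover genes, all with a mean above 5.45, 4 were lower with doxorubicin, against the same shares, led by Dbr1 (−1.52), which opens the intron lariats from which most snoRNAs are trimmed, and the exosome subunit gene Exosc3 (−1.30).

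Other small RNA genes were read for comparison. All 5 small Cajal body RNA genes, guides for spliceosomal RNAs, lay above vehicle with doxorubicin, with a median of 0.84, and vehicle was the lowest array for 3 of them. Among 10 structural RNA genes vehicle was lowest for 5. One of these is Rnu3a, the gene of U3, which acts in the first cleavages of the rRNA precursor and belongs to the C/D class by structure. It read 7.31 with Compound C, 7.37 under doxorubicin, 6.55 under GSK 690693 and 6.44 under tofacitinib, against 5.90 with vehicle. Rpph1, the RNA of ribonuclease P, differed by 0.71, 0.67, 0.50 and 0.15 with the same compounds. Rn7sk, the brightest of the list, lay within 0.09 of vehicle on every array, and Rny1, Rnu11 and Terc lay on both sides of it, between −0.45 and 0.39. The median of 483 microRNA genes, which were dim at 3.61, lay between −0.06 and 0.02. Low signal on the vehicle array was thus shared by some structural small RNAs, Rnu3a and Rpph1 among them, and not by others, and its part in the snoRNA result was not tested. Within the snoRNA genes, Spearman's rho between annotated length and difference from vehicle lay between −0.02 and 0.03 over the 73 genes. With mean signal in place of length, rho was 0.27 with Compound C, 0.25 under doxorubicin, 0.22 under GSK 690693 and −0.07 under tofacitinib.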

How the data were processed

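For 41345 probe sets on 5 arrays, log2 signals as deposited were used, which came from Affymetrix Expression Console 1.3.1.187, per the submitters' processing notes. The sources used here give no summarisation, background correction, normalization or genome build. The log base was inferred from values between 1.05 and 13.18. From each sample 300 ng of total RNA was labelled, per the labels' protocols. Symbols came from the platform annotation, which gave 23521 probe sets 1 symbol, 1814 several and 16010 none. The highest-mean probe set stood for a gene, with no filter on low values in the main counts. Differences are log2 values of single arrays, counted at 1.5-fold without a test, and the number of arrays limits the precision. All 73 snoRNA genes matched a RefSeq table of GRCm38.p6, used for lengths and for which genes span them. The counting step was run on simulated data with changes far above the 1.5-fold cut, so that run says nothing about counts near the cut. Alternatives changed scaling, filter, probe sets, copies and the reference array. Python 3.11.15, pandas 2.3.3, numpy 2.4.6 and statsmodels 0.14.6 were used. Named genes are those brightest, dimmest or furthest apart in each comparison, a set of special snoRNAs, and particle and host genes. The snoRNA genes and all lists were chosen with earlier results of these data known.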

Additional observations from a re-analysis of the deposited data

Results flagged for a closer look

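A further 26 snoRNA genes were read only on probe sets that the annotation gives several symbols, usually the snoRNA and its host, and entered no comparison above. They too read higher than vehicle, with a median log2 difference of 0.42 with Compound C, 0.285 under doxorubicin, 0.325 under GSK 690693 and 0.37 under tofacitinib. Vehicle was the lowest array for 14 of the 26, against 17% of all genes. At least 1.5-fold higher were 8 genes with Compound C (4.75% of all genes), 8 with doxorubicin (7.62%), 9 with GSK 690693 (1.74%) and 7 with tofacitinib (1.88%), among them Snord14e of the chaperone gene Hspa8 (1.06, 1.47, 1.28 and 0.87 with the compounds in the same order). With doxorubicin 3 of the 26 were at least 1.5-fold lower, near the 8.83% of all genes, Snord2 (−1.79), Snord4a (−1.34) and Snora3 (−0.77). Snord32a and Snord34 of Rpl13a, next to Snord35a, lay within 0.30 of vehicle with all compounds, and Snord33 between 0.19 and 0.50. Part of each signal may belong to the host.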

How the results depend on the processing

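Counts of snoRNA genes above vehicle depended on the vehicle array as the reference. The other references used here consist wholly or mostly of compound arrays, so a difference shared by all compounds would also drop out. Lower counts against them therefore cannot tell a low vehicle array from an effect of every compound. Against the median over the other 4 arrays, genes at least 1.5-fold higher numbered 5 with Compound C instead of 31, 4 under doxorubicin instead of 28, 3 under GSK 690693 instead of 28 and 3 under tofacitinib instead of 23. Over all genes these shares were 3.54%, 4.93%, 1.36% and 2.07%. With doxorubicin 12 snoRNA genes were lower (16.4%, against 8.73% of all genes). With the median of the other 3 compound arrays, chosen after seeing the data, they numbered 5, 2, 3 and 2, against 3.80%, 4.92%, 2.78% and 3.75% of all genes, and 14 were lower with doxorubicin (19.2%, against 9.27%). Against that reference the median snoRNA difference was 0.07 with Compound C, −0.09 under doxorubicin, 0.09 under GSK 690693 and −0.11 under tofacitinib, and against the other 4 arrays it was −0.055 with tofacitinib. Median centring, quantile normalization, signal-dependent centring, the low-signal filter, both probe set rules and 1 copy per lettered family kept these 4 counts, and the count lowest on vehicle, within 1.5 times.

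The median of H/ACA minus C/D genes, −0.18 with Compound C, was 0.01 under the low-signal filter. With doxorubicin it was −0.28 under that filter and −0.305 without it. With tofacitinib it was −0.075 against vehicle, 0.0175 against the other 4 arrays and 0.07 against the other 3 compounds. Against these last references it was −0.0075 and −0.015 with Compound C, −0.075 and −0.015 with GSK 690693, and −0.1975 and −0.24 with doxorubicin. Among compounds, the low-signal filter gave 11 genes apart in place of 17 for doxorubicin minus Compound C, 8 in place of 16 for GSK 690693 minus doxorubicin and 9 in place of 16 for tofacitinib minus doxorubicin. These are 18.3%, 13.3% and 15% of 60 snoRNA genes, below the 31.4%, 28.8% and 23.2% of all genes above that mean, and the cause was not tested. Adding probe sets with several symbols gave 8 of 99 snoRNA genes in place of 5 of 73 for GSK 690693 minus Compound C. Of all genes, 11.3% were apart in that pair. Tofacitinib minus GSK 690693 had 4 under quantile normalization and 3 under signal-dependent centring in place of 1, and the cause was not tested. No paired analysis was possible because each group has 1 array. Whether dim probe sets lay above background is unknown.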

Other observations

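Snora33 had a second probe set, which was dim (mean 4.78 against 12.45) and read −0.81 with doxorubicin where the bright one read 0.30. The pair of probe sets of Snora19 held identical values on all 5 arrays. Snord73a and Snord73b, lettered copies in the same host, had means of 8.21 and 11.03, and with tofacitinib they differed from vehicle by 1.45 and 0.52.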
